A study of Arabidopsis thaliana with 90 samples.

Results

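The regions described are the places in the Arabidopsis thaliana genome where BTE1, E2FA and WDR5A-HA were all found in wild-type seedlings, called triple regions from here on. They were chosen by the authors' deposited lists of regions alone. A BTE1 region on chromosomes 1 to 5 was taken when at least 1 bp of it was shared with an E2FA region and at least 1 bp with a WDR5A-HA region. This gave 600 triple regions of 1500 BTE1 regions (40%), and all 600 are accounted for in what follows. They were set beside 539 BTE1 regions with E2FA but without WDR5A-HA (BTE1-E2FA regions), 361 BTE1 regions without E2FA, and 16617 of the 17441 WDR5A-HA regions, those without BTE1.

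All values except those of TBP came from 30 libraries of chromatin immunoprecipitation sequencing (ChIP-seq), with 3 biological replicates for each of 10 features. The plants were whole Col-0 wild-type seedlings at 9 days of age, kept in continuous white light. BTE1 was precipitated with a rabbit antibody against its N-terminal part and E2FA with one against the full protein. WDR5A-HA was precipitated with beads that bind its HA tag, and the labels give the genotype of these plants only as Col-0, so what drives the tagged gene is unknown. The other features were total RNA polymerase II (Pol II), its Ser5P and Ser2P forms, methylation of lysine 4 of histone H3 in 3 degrees (H3K4me1, H3K4me2 and H3K4me3) and the variant histone H2A.Z. TBP had 1 list of regions with no replicates. The labels hold no TBP sample, so the age and material behind this list are not given. The bte1 mutant, the e2fa e2fb e2fc triple mutant, H3K27me3, inputs and IgG precipitations were not analysed here, and no level of a control precipitation stands beside the values. Whole seedlings mix dividing and differentiated cells, so 2 features with a peak at 1 place need not share the same cells, and more cells with a signal cannot be told apart from more signal per cell.

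The DREAM complex joins E2F-DP transcription factors, a retinoblastoma protein and DNA-binding subunits with CXC domains, and it is known for holding genes of the cell cycle in check outside the phase in which they act. BTE1 is a protein of this complex and E2FA is one of the E2F factors through which it can reach DNA. WDR5A is a subunit of COMPASS-like complexes, which methylate lysine 4 of histone H3 at the starts of transcribed genes. Pol II with Ser5P in its C-terminal tail is the form of initiation and early transcription, Ser2P marks elongation, and TBP binds promoters as part of the machinery that places Pol II.

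The values of the 3 factors that chose the regions are given as a description. BTE1 peaks stood in all 3 libraries at 451 of the 600 triple regions and in 2 libraries at the other 149. For E2FA, 500 regions had a peak in 3 libraries, 96 in 2 and 4 in 1. For WDR5A-HA, 490 had one in 3 libraries, 73 in 2 and 37 in 1. Fold enrichment is the authors' own value for each peak, a ratio over the peak caller's background. The median BTE1 fold was 4.06, 4.84 and 3.89 in replicates 1, 2 and 3 of the triple regions, against 4.88, 5.68 and 4.69 in the BTE1-E2FA regions and 3.16, 3.83 and 2.95 in the BTE1 regions without E2FA. Median E2FA folds were 4.38, 3.67 and 4.71 in triple regions and 4.81, 3.76 and 5.16 in BTE1-E2FA regions. WDR5A-HA was the weakest of the 3 by fold, at 2.38, 2.48 and 2.56. In each of the 3 libraries the triple regions therefore carried lower BTE1 and E2FA medians than the BTE1-E2FA regions.

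Triple regions were 282 to 2243 bp long with a median of 621 bp, against a median of 640 bp for BTE1-E2FA regions and 487 bp for BTE1 regions without E2FA. The E2FA overlap had a median of 528.5 bp, or 89.8% of the region, and the WDR5A-HA overlap a median of 410 bp, or 68.6%. Only 3 triple regions shared under 200 bp with E2FA, while 41 shared under 200 bp with WDR5A-HA, and the shortest WDR5A-HA overlap was 10 bp. Outside the rule, the median BTE1-E2FA region lay 3106 bp from the nearest WDR5A-HA region, and 44 of the 539 lay within 500 bp of one. The deposited WDR5A-HA list contained every library 1 peak (100%), and each of its regions overlapped a library 1 peak. It thus left out places seen only in libraries 2 and 3. Of the BTE1-E2FA regions, 0% had a WDR5A-HA peak in library 1, 7.79% in library 2 and 15.8% in library 3, and 442 of 539 had none in any library.

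The first comparison asked whether polymerase was found more often where WDR5A-HA joined BTE1 and E2FA. All 3 forms of Pol II were found at triple regions several times as often as at BTE1-E2FA regions. Total Pol II had a peak at 34.5%, 35.7% and 36.8% of triple regions in replicates 1, 2 and 3, against 6.68%, 7.61% and 7.79% of BTE1-E2FA regions. Every library showed the higher share in triple regions, and the 2 sets of values did not overlap. The difference was 28.3 ± 0.647 percentage points (SD, n = 3 libraries), a ratio of 4.85. The Ser5P form had a peak at 42.2%, 49.7% and 51.3% of triple regions, against 7.05%, 7.98% and 8.53% of BTE1-E2FA regions. Its difference of 39.9 ± 4.15 points was the largest of the 7 features in this comparison. Ser2P was found at 22.8%, 28.0% and 27.5% of triple regions, against 7.05%, 9.83% and 11.3% of BTE1-E2FA regions, a difference of 16.7 ± 1.28 points. Each of the 3 differences was larger than the SD between libraries of either kind. Counting only peaks at or above the median score brought the Ser5P difference to 24.9 points. In the exact sign-flip test within libraries (two-sided) p was 0.25 for each form, adjusted 0.292 over the 7 features, and 0.25 is the smallest p that 3 libraries can give. The spread here is that between libraries, which measured the same regions, and p-values cannot pass a threshold of 0.05 in this design.

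**Figure D1:**
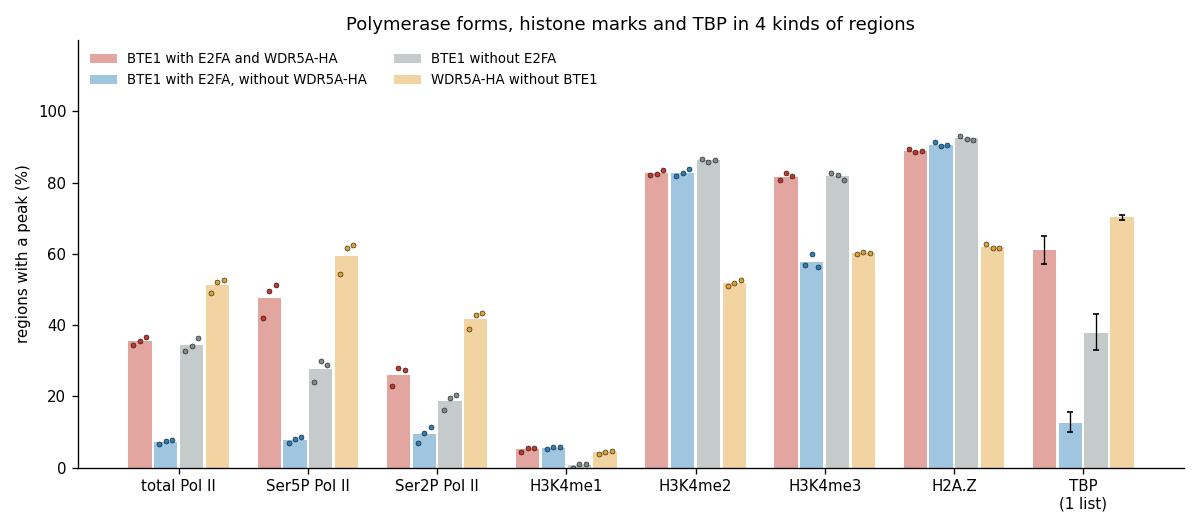
Share of regions (%) with a peak of each feature in 4 kinds of regions; bars are means over 3 libraries, points the libraries, and for TBP (1 list) the line is the exact 95% interval. Triple regions stand at 35.7% for total Pol II and 47.7% for Ser5P, against 7.36% and 7.85% at BTE1 regions with E2FA but without WDR5A-HA, while H3K4me2 and H2A.Z hardly separate these 2 kinds.

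Counted by the stricter rule of a peak in all 3 libraries, 185 of 600 triple regions (30.8%) carried total Pol II, against 30 of 539 BTE1-E2FA regions (5.57%) and 21.3% of all BTE1 regions, triple regions included. For Ser5P this held at 224 triple regions (37.3%) and 25 BTE1-E2FA regions (4.64%), with 21.6% of all BTE1 regions. Ser2P in 3 libraries was found at 132 triple regions (22%) and 35 BTE1-E2FA regions (6.49%), with 14.3% of all BTE1 regions. Polymerase peaks were also stronger where they occurred. Median fold was 3.98, 3.98 and 3.92 for total Pol II at triple regions, against 2.81, 2.60 and 2.64 at BTE1-E2FA regions. For Ser2P it was 4.22, 4.15 and 4.12 at triple regions, against 2.83, 2.72 and 2.82 at BTE1-E2FA regions. The Ser5P medians lay closer, at 3.15, 3.18 and 3.11 for triple regions and 2.64, 2.49 and 2.59 for BTE1-E2FA regions. None of these 3 pairs of medians overlapped, and each p was 0.25 in the same exact test (adjusted 0.375).

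TBP was found at 367 of 600 triple regions, 61.2% (exact 95% interval 57.1% to 65.1%, counting error only), against 68 of 539 BTE1-E2FA regions, 12.6% (9.93% to 15.7%), and 38.1% of all BTE1 regions. BTE1 regions without E2FA stood between them at 38.0% (32.9% to 43.2%), and WDR5A-HA regions without BTE1 above them at 70.3% (69.6% to 71.0%). With 1 list for TBP there was no test.

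Among the histone marks, H3K4me3 separated the 2 kinds of E2FA-bound regions and H3K4me2 and H2A.Z hardly did. H3K4me3 had a peak at 80.7%, 82.7% and 81.8% of triple regions, against 56.8%, 59.9% and 56.4% of BTE1-E2FA regions, a difference of 24.0 ± 1.35 points. Its median fold was 6.80, 6.15 and 6.83 at triple regions and 4.62, 4.17 and 4.53 at BTE1-E2FA regions, again without overlap. H3K4me3 in all 3 libraries was present at 477 triple regions (79.5%) and 288 BTE1-E2FA regions (53.4%), against 70.2% of all BTE1 regions. H3K4me2 had a mean share of 82.7% ± 0.726 in triple regions and 82.8% ± 1.02 in BTE1-E2FA regions (SD, n = 3), and the difference of -0.14 points was smaller than its own SD of 0.425. Here 478 triple regions had it in 3 libraries (79.7%), beside 80.5% of all BTE1 regions. H2A.Z, a variant found around the first nucleosomes of genes, had a peak at 89.5%, 88.7% and 88.8% of triple regions and at 91.5%, 90.2% and 90.5% of BTE1-E2FA regions, 1.72 points lower in triple regions with no overlap between libraries. It was present in 3 libraries at 527 triple regions (87.8%), beside 89.1% of all BTE1 regions. H3K4me1, a mark of gene bodies, was rare, at 5.17% ± 0.577 of triple regions and 5.63% ± 0.214 of BTE1-E2FA regions, and 15 triple regions (2.50%) had it in 3 libraries beside 1.47% of all BTE1 regions. For H3K4me2 and H3K4me1 the values of the 2 kinds overlapped between libraries.

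Set against BTE1 regions without E2FA, triple regions differed in some forms of Pol II and not in others. These 361 regions miss the E2FA list but are not all free of E2FA peaks. No library had one at 202 of them, 1 library did at 158 and 2 libraries at 1. BTE1 itself had a peak in all 3 libraries at 159 of the 361. Ser5P was found at 47.7% ± 4.88 of triple regions and 27.6% ± 3.09 of BTE1 regions without E2FA, and Ser2P at 26.1% ± 2.85 and 18.7% ± 2.36 in the same order. Within strata of region length the Ser2P difference was 1.81 points, against 7.37 points without them, and with peaks at or above the median score the Ser5P difference was 13.2 points. Total Pol II differed by 1.32 ± 0.678 points and H3K4me3 by -0.27 ± 1.66 points, and for both the values of the 2 kinds overlapped. Against WDR5A-HA regions without BTE1, the picture split by feature. Triple regions had Pol II less often, at 35.7% ± 1.17 against 51.3% ± 2.01 for total Pol II, 47.7% ± 4.88 against 59.6% ± 4.44 for Ser5P, and 26.1% ± 2.85 against 41.8% ± 2.37 for Ser2P. They had the promoter marks more often, at 82.7% against 52.0% for H3K4me2, 81.7% against 60.2% for H3K4me3 and 89.0% against 62.1% for H2A.Z. Every library showed each of these 6 directions, and their exact p was again 0.25. With peaks at or above the median score the H3K4me3 difference shrank to 0.516 points, against 21.5 points with all peaks, and with triple regions backed by every library of each factor, set against WDR5A-HA regions with no BTE1 peak in any library, the Ser5P difference was -6.44 points, against -11.8 points.

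BTE1 regions without E2FA are themselves a mixture, so they and the E2FA regions without BTE1 were divided by WDR5A-HA, a step added after the first results were seen and given without a test. Within each pairing, regions with WDR5A-HA carried more polymerase. Of the 218 BTE1 regions with WDR5A-HA but without E2FA, 51.7% ± 1.91 had total Pol II and 43.4% ± 3.85 Ser5P (SD, n = 3). Of the 143 BTE1 regions with neither partner, 7.93% ± 2.25 had total Pol II and 3.5% ± 2.1 Ser5P. Among E2FA regions without BTE1, the 1325 with WDR5A-HA had total Pol II at 60.4% ± 1.70 and Ser5P at 71.0% ± 3.54, and the 751 without it at 24.9% ± 1.85 and 25.6% ± 1.97. Triple regions thus had total Pol II less often than either of the other kinds with WDR5A-HA, in 3 of 3 libraries each. The difference was 16 ± 0.853 points against BTE1 with WDR5A-HA and 24.8 ± 0.740 points against E2FA with WDR5A-HA. Ser2P, at 26.1%, was also below both, at 27.8% and 55.6% in the same order. Ser5P, at 47.7%, was above the 43.4% of BTE1 with WDR5A-HA in 3 of 3 libraries. It was below the 71.0% of E2FA with WDR5A-HA in 3 of 3. TBP, at 61.2%, likewise lay between 56.4% with BTE1 and WDR5A-HA and 80.1% with E2FA and WDR5A-HA. Regions of these 2 kinds were shorter, with median lengths of 491 bp and 492 bp in the same order, against 621 bp for triple regions. The differences from them were not repeated within strata of region length.

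The histone marks followed a different order over the same kinds of regions. H3K4me3 was found at 81.7% of triple regions, at 90.4% ± 1.21 of BTE1 regions with WDR5A-HA alone and at 56.6% ± 0.305 of E2FA regions with WDR5A-HA alone. For H2A.Z the values were 89.0% in triple regions, 92.8% ± 0.701 with BTE1 and WDR5A-HA, and 58.1% ± 0.349 with E2FA and WDR5A-HA. H3K4me2 showed the widest gap, at 82.7% of triple regions and 42.9% ± 1.21 of E2FA regions with WDR5A-HA alone. All 4 kinds of BTE1 regions stood above both kinds of E2FA regions without BTE1 in H2A.Z and H3K4me2.

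**Figure D2:**
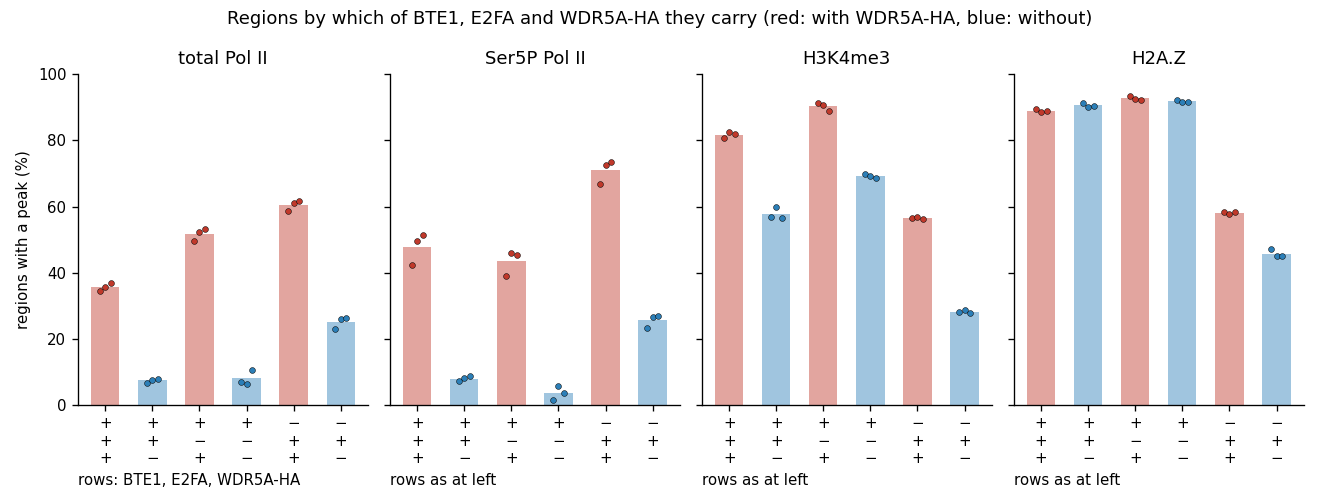
Share of regions (%) with total Pol II, Ser5P, H3K4me3 and H2A.Z by which of BTE1, E2FA and WDR5A-HA they carry (plus and minus signs, top to bottom in that order); bars are means and points the 3 libraries. Mean total Pol II is 24.9% or lower in the 3 kinds without WDR5A-HA and 35.7% or higher in the 3 kinds with it, and H2A.Z lies above 88% in all 4 kinds with BTE1.

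The 600 triple regions differed among themselves. They were divided into 4 equal bins of 150 by the mean log2 fold of WDR5A-HA over the libraries with a peak, a value from the readout that chose them, so the shares are a description without a test. From the lowest to the highest bin of WDR5A-HA fold (median folds 1.92, 2.2, 2.65 and 3.58), Ser5P was found at 21.6% ± 5.09, 33.6% ± 4.44, 58.7% ± 3.53 and 77.1% ± 6.74 of regions. Total Pol II followed at 19.3%, 30.2%, 44.2% and 48.9%, and Ser2P at 16.9%, 22.4%, 32.4% and 32.7%. TBP was listed at 40.7%, 53.3%, 71.3% and 79.3%. H3K4me3 changed little over the bins, at 82.9%, 84.0%, 80.7% and 79.3%, while H3K4me2 went the other way at 88.9%, 86.0%, 85.1% and 70.7%, and so did H2A.Z at 94.4%, 92.7%, 90.0% and 78.9%. The highest bin of WDR5A-HA fold therefore held the most Ser5P and TBP and the least H2A.Z and H3K4me2.

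Bins by BTE1 fold ran the other way for polymerase. From the lowest to the highest bin (median BTE1 folds 2.78, 3.55, 4.67 and 8.49), total Pol II was found at 43.1% ± 3.91, 38.2% ± 1.02, 33.1% ± 1.92 and 28.2% ± 0.385 of regions and Ser5P at 55.6%, 50.4%, 44.0% and 40.9%. H2A.Z was highest where BTE1 was strongest, at 95.3% against 87.6% in the lowest bin, and so were H3K4me2, at 93.1% against 77.8%, and H3K4me1, at 11.8% ± 1.02 against 2.22% ± 0.770. The bins were not matched for region length. Over all triple regions the H3K4me1 share was 5.17%, but 1.72% when 200 bp of overlap was asked for and 1.06% within 250 bp of the midpoint. By E2FA fold, total Pol II stood at 44.7%, 40.0%, 33.1% and 24.9% from the lowest to the highest bin and Ser2P at 33.3%, 28.4%, 24.9% and 17.8%. H3K4me2 moved little over the E2FA bins, between 81.1% and 84.0%.

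**Figure D3:**
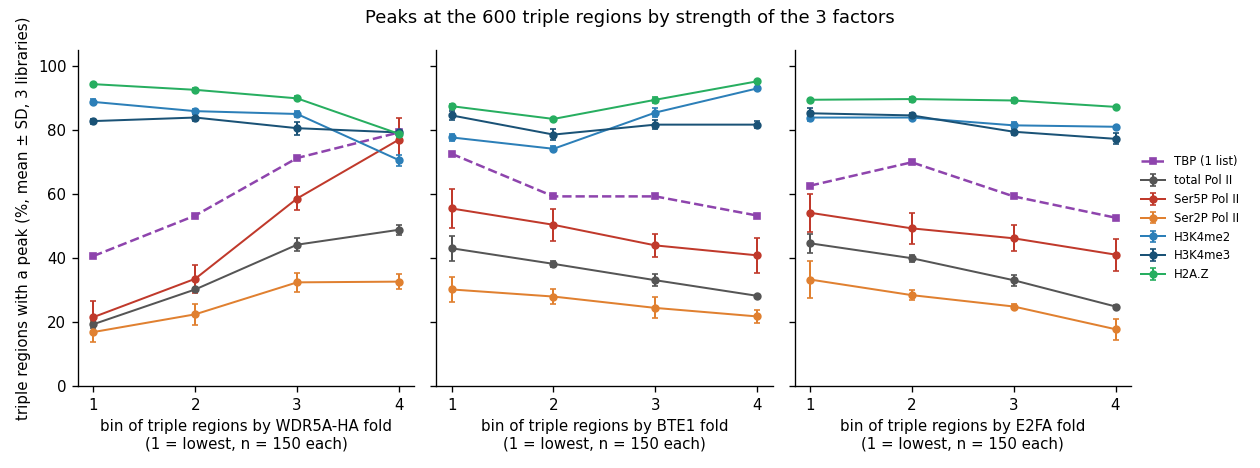
Share of triple regions (%) with a peak, in 4 bins of 150 regions by WDR5A-HA, BTE1 and E2FA fold; points are means over 3 libraries with the SD, and TBP is 1 list. Ser5P is found at 21.6% in the lowest and 77.1% in the highest WDR5A-HA bin, and among the BTE1 bins it is lowest, at 40.9%, in the highest.

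For 371 triple regions both BTE1 and WDR5A-HA had a peak in all 3 libraries, so that both mean folds could be plotted. Of these, 165 had Ser5P in 3 libraries and 124 in none. The median WDR5A-HA fold was 2.96 in the 165 regions with Ser5P and 2.18 in the 124 without Ser5P, and the median BTE1 fold was 4.45 and 4.70 in the same order.

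**Figure D4:**
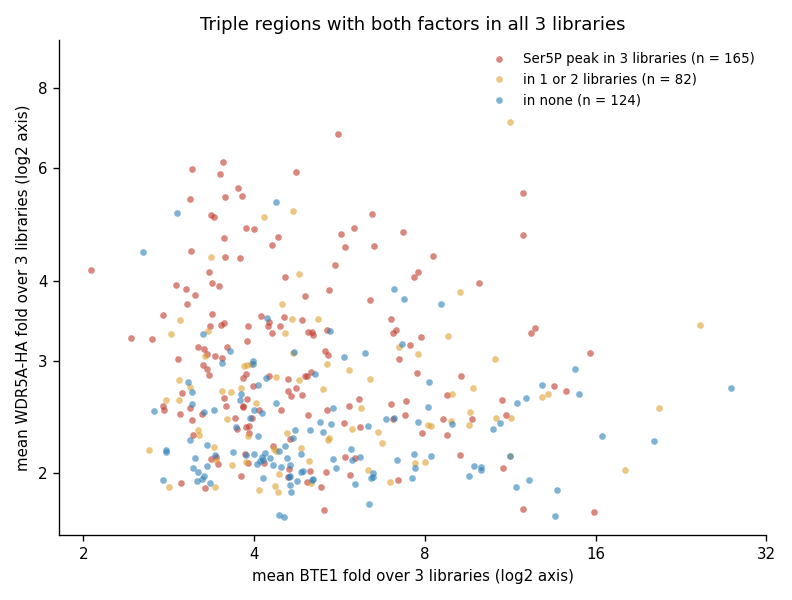
Mean BTE1 fold (x) and mean WDR5A-HA fold (y) over 3 libraries, both on log2 axes, for the 371 triple regions with both factors in every library, coloured by the number of libraries with a Ser5P peak. Regions with Ser5P in 3 libraries (n = 165) extend to higher WDR5A-HA folds than those with none (n = 124), and the range of BTE1 folds is shared.

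Marks were also read together on single regions, each counted when present in all 3 libraries. H3K4me2, H3K4me3 and H2A.Z met on 418 of 600 triple regions (69.7%), against 276 of 539 BTE1-E2FA regions (51.2%). H3K4me2 and H2A.Z with H3K4me3 in no library was seen at 35 triple regions (5.83%) and at 111 BTE1-E2FA regions (20.6%). Some form of Pol II in 3 libraries was found at 265 triple regions (44.2%) and 49 BTE1-E2FA regions (9.09%), while 237 triple regions (39.5%) and 456 BTE1-E2FA regions (84.6%) had no form of Pol II in any library. The 3 forms met on 118 triple regions (19.7%) and on 16 of 539 BTE1-E2FA regions. Ser5P with Ser2P in no library was seen at 80 triple regions (13.3%) and at 3 BTE1-E2FA regions. Ser2P with Ser5P in no library was seen at 1 triple region and at 7 BTE1-E2FA regions. Of the 224 triple regions with Ser5P, 205 also had TBP and 19 did not. TBP was also listed at most Ser5P regions of the other kinds. It was at 22 of 25 BTE1-E2FA regions and 65 of 75 BTE1 regions without E2FA. A further 193 triple regions (32.2%) had H3K4me3 but no form of Pol II in any library. This was more common at BTE1-E2FA regions, at 251 (46.6%), and at BTE1 regions without E2FA, at 138 (38.2%). TBP but no form of Pol II was seen at 74 triple regions (12.3%), 21 of 539 BTE1-E2FA regions and 25 of 361 BTE1 regions without E2FA. Regions with none of H3K4me3, TBP or Pol II made up 2.67% of triple regions (16) and 28.9% of BTE1-E2FA regions (156).

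Summits were compared next, that is the highest point of each peak. BTE1 and E2FA summits nearly coincided at triple regions, with a median distance of 36.7 ± 2.18 bp over the 9 pairs of libraries, and 82.3% lay within 100 bp. WDR5A-HA summits lay farther off, at 147 ± 7.31 bp from BTE1 and 148 ± 9.55 bp from E2FA. The nearest summit to WDR5A-HA among the features measured against it was that of Ser5P, at 80.1 ± 8.67 bp, with total Pol II at 159 ± 16.8 bp and H3K4me3 at 273 ± 13.0 bp. These distances describe the regions with both peaks in a pair of libraries.

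Direction was read where both summits lay at least 100 bp from the BTE1 summit. Ser5P then lay on the same side of BTE1 as WDR5A-HA in 91.5% to 92.5% of regions in the 3 libraries (130 to 160 regions each), and total Pol II in 81.9% to 87.2% (100 to 125 regions). Ser2P did so in 82.8% to 86.8%. H3K4me2 lay on the same side in only 30.7% to 36.4% of regions and H2A.Z in 38.9% to 42.2%, both under the 50% of an even split, and H3K4me3 in 57.9% to 63.8%. Polymerase summits thus mostly shared the side of WDR5A-HA, and H3K4me2 and H2A.Z summits lay more often across BTE1 from WDR5A-HA.

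Gene ends gave a second frame. The gene table gives no strand, so a distance to the nearest annotated end of a protein-coding gene is used, positive towards the inside of that gene, for the 575 triple regions (95.8%) that have such an end within 500 bp. At triple regions the median E2FA summit lay 19.2 ± 2.84 bp inside the gene, BTE1 at 49.7 ± 7.57 bp and WDR5A-HA at 49.8 ± 11.8 bp (SD over 3 libraries). Medians of the Pol II forms lay close to the gene end, at 16.5 ± 7.57 bp for total Pol II, -17.5 ± 0.866 bp for Ser5P and -11.3 ± 7.37 bp for Ser2P. Summits of each form fell to both sides of it. On average 55.9% of total Pol II, 43.8% of Ser5P and 46.3% of Ser2P summits lay inside the gene. H2A.Z, H3K4me3 and H3K4me2 lay well inside, at 269 ± 4.65, 290 ± 2.36 and 333 ± 5.01 bp. The nucleosome marks sat farther inside the gene at triple regions than at BTE1-E2FA regions, where the medians were 238 ± 5.03 bp for H2A.Z, 265 ± 8.43 bp for H3K4me3 and 267 ± 7.15 bp for H3K4me2, and none of these 3 pairs of values overlapped. From the midpoint of the region, too, these marks lay farther out at triple regions. The H3K4me3 summit lay 229 ± 3 bp from the midpoint at triple regions against 149 ± 5.25 bp at BTE1-E2FA regions, and the H3K4me2 summit 241 ± 9.64 bp against 171 ± 4.93 bp, with an exact sign-flip p of 0.25 for both. This was not limited to the marks. Total Pol II lay at 372 bp against 280 bp, Ser5P at 261 bp against 228 bp and Ser2P at 346 bp against 254 bp. The exact sign-flip p was 0.25 for each form.

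**Figure D5:**
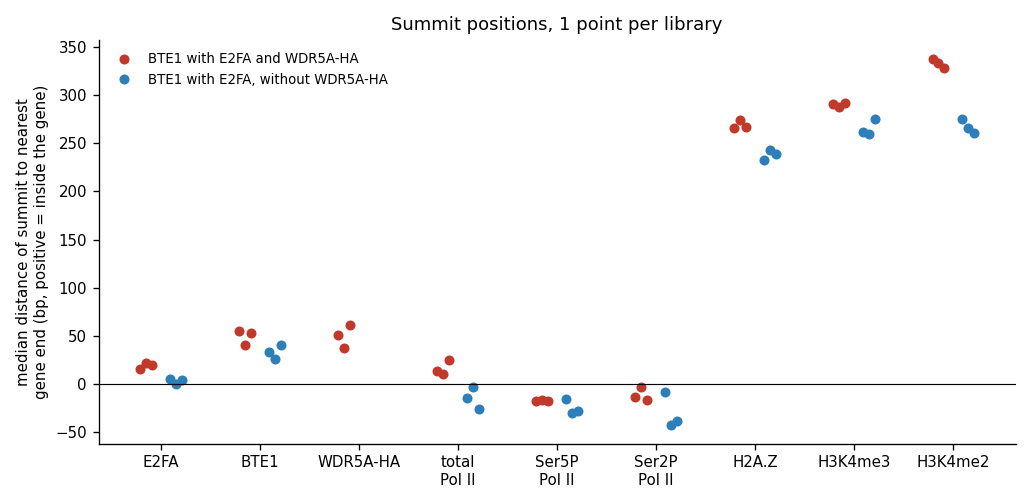
Median distance (bp) of each feature's summit to the nearest end of a protein-coding gene, positive inside the gene, 1 point per library, for triple regions (red) and BTE1 regions with E2FA but without WDR5A-HA (blue; no WDR5A-HA value is drawn for these). Medians of factors and Pol II lie between -43 and 61 bp, and H2A.Z, H3K4me3 and H3K4me2 lie 233 bp or more inside.

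Genes were assigned to a region when either end of a protein-coding gene lay within 500 bp, so neighbours can share a region. Of 27444 protein-coding genes 909 (3.31%) had a triple region, and 55.7% of triple regions had 2 or more such genes, against 44.5% of BTE1-E2FA regions. Gene lists were counted with earlier results of these data known, so they describe where the triple regions lie. Over all protein-coding genes 909 had a triple region and 734 a BTE1-E2FA region, and no split between the 2 kinds was tested. Of the DNA replication genes, 19 of 55 (34.5%) had a triple region and 28 a BTE1-E2FA region, RNR1 both. Histone genes had 9 of 28 (32.1%) at triple regions and 6 at BTE1-E2FA regions, DNA repair and checkpoint genes 9 of 29 (31.0%) and 9, and genes of the G1/S transition 6 of 27 (22.2%) and 4. Genes of mitosis and cytokinesis had 3 of 37 (8.11%) at a triple region and 16 at a BTE1-E2FA region, and the 3 became 6 with gene ends within 1000 bp. Chromatin replication and DNA methylation had 3 of 18 genes at triple regions and 7 at BTE1-E2FA regions. DREAM subunit genes had the highest share of the 12 lists, with 7 of 17 (41.2%) at a triple region and 1, E2FB, at a BTE1-E2FA region. Genes of COMPASS and transcript elongation had 5 of 34 at triple regions, light signalling and the clock 3 of 25, cytosolic ribosomal proteins 2 of 20 and photosynthesis 1 of 36. None of the 28 seed and floral genes had one, and LFY had a BTE1-E2FA region.

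Counts of polymerase by group stand beside those over all 600 triple regions, of which 185 (30.8%) had total Pol II in 3 libraries, 224 (37.3%) had Ser5P and 237 (39.5%) had no form. Each of the 9 regions of histone genes had total Pol II in 3 libraries, 4 had Ser5P and 3 had Ser2P. Of the 10 regions of DNA repair and checkpoint genes none had total Pol II in 3 libraries, 1 had Ser5P and 8 had no form of Pol II in any library. Of the 20 regions of DNA replication genes 6 had total Pol II, 8 had Ser5P and 8 had no form, close to the shares over all triple regions. These counts carry no test. H2A.Z and H3K4me2 in 3 libraries were present at every region of these 3 groups, beside 87.8% and 79.7% of all triple regions. The same held for the few regions of chromatin replication, mitosis, DREAM subunit and COMPASS genes and for the 1 region of photosynthesis genes. It did not hold for the 6 regions of G1/S genes, where 3 had H3K4me2 and 4 had H2A.Z in 3 libraries. H3K4me2 was also missing from some light and clock regions, with 2 of 3, and ribosomal protein regions, with 1 of 2. All regions of these last 2 groups had H2A.Z. Several histone genes have near-identical copies, and the sources used here do not say how reads from copies were counted, so values at single histone genes are less certain.

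The strongest BTE1 binding among triple regions with every factor in every library was at RNR1 (AT2G21790). This gene encodes the large subunit of the enzyme that makes deoxynucleotides for DNA synthesis. The region lies on chromosome 2 from 9292905 to 9294379 (TAIR10). BTE1 fold there was 19.9, 42.8 and 20.4, E2FA fold 16.1, 25.7 and 22.9, and WDR5A-HA fold 2.63, 3.06 and 2.47 in replicates 1, 2 and 3. No form of Pol II had a peak in any library, while H3K4me1, H3K4me2, H3K4me3 and H2A.Z did in all 3. The second, on chromosome 4 from 900970 to 902329, lies between STP7, a sugar transporter gene, and MCM7 (AT4G02060), a subunit of the replicative helicase. Its BTE1 fold was 27, 23.6 and 22.8, total Pol II and Ser5P had peaks in 2 libraries each and Ser2P in none. BARD1 (AT1G04020), a RING-domain protein of DNA repair, had BTE1 folds of 24.2, 22.5 and 14.1, and again no Pol II form. CYCD4;1, a D-type cyclin, was the opposite in its chromatin. It had BTE1 folds of 18.1, 14.8 and 14.0 and Ser5P folds of 3.35, 2.56 and 3.54, but no H3K4 methylation or H2A.Z peak in any library. The other 4 of the first 8 by BTE1 fold were AT3G56870, AT4G20325, AT5G52950 and AT1G68200, with mean folds of 15.9 to 20.7, and of these only AT1G68200 had all 3 Pol II forms in every library.

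Further replication and chromatin genes showed how WDR5A-HA and polymerase varied at strong BTE1 sites. At CDC6 (AT2G29680), which licenses origins of replication, BTE1 fold was 14.4, 13.9 and 14.3 with Ser5P at 2.70, 2.76 and 3.1 and no total Pol II or Ser2P peak. The gene nearest to this region was AT2G29679. TSK (AT3G18730), which acts on newly replicated chromatin, had BTE1 folds of 8.55, 16.1 and 11.2 and WDR5A-HA folds of 5.68, 5.12 and 5.64, where the median WDR5A-HA fold of all triple regions was 2.40. Its region had all 3 forms of Pol II, with Ser2P folds of 4.85, 5.38 and 6.05. FAS2 (AT5G64630), a subunit of the chromatin assembly factor that deposits histones behind the fork, had BTE1 folds of 9.54, 9.36 and 8.87, total Pol II and Ser5P in 3 libraries and no Ser2P. ATXR6 (AT5G24330), a methyltransferase of lysine 27 of histone H3, had a Ser5P peak in 1 library only. MSH6 (AT4G02070), of mismatch repair, and BRCA2B (AT5G01630), of recombination, had mean BTE1 folds of 17.9 ± 2.26 and 14.8 ± 2.05 and each had a WDR5A-HA peak in library 1 alone. The MSH6 region was shared with MCM7, and the gene nearest to the BRCA2B region was PRA1.B5.

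Among histone genes HTA13 (AT3G20670), an H2A gene, had a mean BTE1 fold of 11 ± 2.16 and total Pol II folds of 5.03, 5.75 and 5.95. HTA10 (AT1G51060), another, had total Pol II folds of 7.40, 7.10 and 5.06 at a BTE1 fold of 7.78 ± 0.940. HTR12 (AT1G01370), which encodes the centromeric histone H3, had total Pol II at 3.16, 2.55 and 2.66 and no Ser5P peak. Among cyclins, CYCA1;1 and CYCA3;1 had no Pol II form in any library at BTE1 folds of 7.53 ± 0.542 and 5.94 ± 1.23. CYCB1;3 differed from both, with total Pol II folds of 4.54, 5.35 and 5.70 and no BTE1 peak in library 2. Of the G1/S genes, CYCD4;2 had a Ser5P peak in 1 library, and its WDR5A-HA peak was in library 1 alone. Like CYCD4;1, it had no H3K4 methylation or H2A.Z peak in any library. FBL17, an F-box protein that removes inhibitors of cyclin-dependent kinases, had Ser2P folds of 5.04, 5.27 and 5.20 without total Pol II.

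At the 7 regions of DREAM subunit genes the median BTE1 fold was 6.28, beside 4.06 over all triple regions. TCX2 (AT4G14770), a CXC-domain subunit, had BTE1 folds of 8.12, 7.86 and 8.30 and no Pol II form. ALY1 (AT5G27610) and E2FC (AT1G47870), a second E2F factor, had mean BTE1 folds of 6.45 ± 1.77 and 6.44 ± 0.246, again with no Pol II form in any library. The WDR5A-HA peak at ALY1 was in library 1 alone. E2FA (AT2G36010), which encodes the factor precipitated, had BTE1 folds of 6.39, 6.72 and 5.99 and Ser2P folds of 7.17, 7.57 and 5.20, with total Pol II at 5.47, 6.19 and 4.09. RBR1 (AT3G12280), the retinoblastoma-related protein, had the highest WDR5A-HA fold of the 7, at 4.23, 4.31 and 5.0, with Ser5P at 3.78, 3.81 and 4.05 and no Ser2P. DPA (AT5G02470), the dimerization partner of E2Fs, had Ser5P at 2.72, 3.33 and 2.77 and no other form. SOL1 (AT3G22760), a second CXC-domain protein, had a Ser5P peak in 1 library. Of these 7 regions, 3 had no form of Pol II, and only that of E2FA had Ser2P in every library.

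Genes of the transcription machinery were bound as well. ATX1 (AT2G31650), a methyltransferase of H3K4, had a mean BTE1 fold of 16.4 ± 4.23 and no Pol II form. TBP1 (AT3G13445) and TBP2 (AT1G55520), the genes of TBP, had mean BTE1 folds of 12.5 ± 2.76 and 11.4 ± 2.33. All 3 forms of Pol II were present at TBP1 in every library, and at TBP2 total Pol II alone was. Both carried H3K4me1 in 3 libraries, which only 15 triple regions did. Of the light and clock genes, PRR7 (AT5G02810) shared its region with RHL2 and had Ser5P without total Pol II. HY5 (AT5G11260), a transcription factor of light responses, had all 3 forms, with Ser5P at 4.42, 4.50 and 4.78, and FKF1 (AT1G68050), a blue-light receptor, had Ser5P in 2 libraries. LHCB6 (AT1G15820), a light-harvesting protein, had total Pol II folds of 12, 9.93 and 13.0 and no Ser2P peak at a BTE1 fold of 4.4 ± 0.776. Its region was shared with AT1G15830 and with AT1G15825, the nearest gene. Of the ribosomal protein genes, RPL16A and RPS5A had all 3 forms in every library. The gene nearest to the RPL16A region was AT2G42750.

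The strongest WDR5A-HA sites among triple regions with all factors in all libraries had a mean fold of 7.09 ± 0.631 at AT4G16970, 6.79 ± 0.628 at chromosome 5 from 16206715 to 16207372 (TAIR10), 6.12 ± 0.292 at AT3G23020 and 5.98 ± 0.411 at AT3G50240. The chromosome 5 region is 1 of the few with no protein-coding gene end within 500 bp, and it had Ser5P folds of 6.85, 7.74 and 6.21 with TBP and no histone mark. All 4 had Ser5P in 2 or 3 libraries and none had Ser2P in any. Ser5P folds were high at some of them, at 10.7 and 8.13 in replicates 2 and 3 of AT4G16970. Triple regions with Ser5P or Ser2P in 3 libraries were then ordered by the mean of their ranks within each library. AT2G35260 ranked first for both forms, with Ser5P at 9.79, 10.9 and 11.4, Ser2P at 12.4, 12.7 and 11.6 and BTE1 at 3.57, 3.21 and 3.5. After it by rank for Ser5P came AT1G23390, AT5G47400 and HSC70-1 (AT5G02500), a heat shock protein family chaperone. By rank for Ser2P the next were CHLM (AT4G25080), of chlorophyll synthesis, LTO1 (AT4G35760), a thiol oxidoreductase of the chloroplast, and AT1G20690. At these 7 regions BTE1 fold was between 2.18 and 7.25 in every library with a peak, and HSC70-1 and LTO1 had H3K4me3 in 3 libraries but no H2A.Z.

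At the edge of the rule, the 3 triple regions with the shortest WDR5A-HA overlaps were at AT3G48390 (10 bp), AT4G15830 (10 bp) and AT1G02670 (19 bp), with mean BTE1 folds of 2.60, 3.25 and 3.54. The first had Ser5P in 2 libraries and the others no Pol II form. Among the BTE1-E2FA regions nearest to a WDR5A-HA region, those at AT4G19130 (RPA1E), a replication protein A gene, and at AT1G07270 missed one by 13 and 25 bp. Neither had total Pol II. AT4G19130 had Ser5P in 2 libraries, with folds of 1.80 and 2.77, and AT1G07270 had no Pol II form. As groups, the 41 triple regions with under 200 bp of overlap had Ser5P at 22.8% ± 7.45 and the other 559 at 49.6% ± 4.70, while the 44 BTE1-E2FA regions within 500 bp of WDR5A-HA had it at 14.4% ± 1.31 and the other 495 at 7.27% ± 0.728. These groups are made from values the rule used and carry no test.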

How the data were processed

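ChIP-seq peaks of 30 wild-type libraries and 11 lists of regions for the whole series were used, of 90 libraries in the labels. Per the submitters' processing notes, reads went through fastp, Bowtie2 2.3.3 and MACS2 2.2.5 on TAIR10. Which library served as control is not stated. The deposited peak files give positions, a score, −log10 p, −log10 q, a summit and a fold enrichment, which is a ratio to local background; the series lists deposited by the authors hold positions only, so depth is unknown.

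The triple regions and the gene lists were chosen with earlier results of these data known. The 12 gene lists (353 genes) and the further kinds of regions, the distances to gene ends and the bins by fold were added after the plan of tests was written. A region had a feature in a library when a peak shared at least 1 bp with it, and its value was the highest fold among those peaks. Shares, median folds and summit distances were compared with exact sign-flip tests over 3 libraries, two-sided, paired within the library because both values of a pair come from the same peaks, with Benjamini-Hochberg adjustment over the 7 features (6 for folds). Named regions were the 8 highest by mean BTE1 fold and 4 by WDR5A-HA fold with every factor in every library, the 4 highest ranks of Ser5P and of Ser2P, up to 3 genes per list, all DREAM subunit genes, and 3 regions to either side of the WDR5A-HA limit. Of these regions, 1 is not reported here. Genes came from the RefSeq table of TAIR10.1; 96.9% of 15948 H3K4me3 summits lay in its genes, against 67.8% after a shift of 1000 bp. Counting was tested on simulated regions. Alternatives covered peak score, overlap, window, region length, library support, gene ends, the test, and each replicate left out. No genome sequence was used, so the planned motif search was not run. Python 3.11.15, numpy 2.4.6, pandas 2.3.3, scipy 1.17.1 and matplotlib 3.10.9 were used.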

Additional observations from a re-analysis of the deposited data

How the results depend on the processing

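Against BTE1-E2FA regions, the higher share of total Pol II, Ser5P, Ser2P and H3K4me3 at triple regions kept its direction under every alternative run, at 22.2 to 31.8, 24.9 to 48.6, 14.2 to 21.0 and 19.2 to 27.1 points. Among regions with H3K4me3 in 3 libraries (added after seeing the data) the Ser5P difference was 41.3 points, and within strata of BTE1 fold (also added) 39.3 points. Smaller differences changed sign. For H3K4me1 it became 0.156 with peaks above the median score, 0.238 at 200 bp of overlap, 1.11 with triple regions backed by 3 libraries of each factor and the others by none, and 0.374 in BTE1 fold strata. For H3K4me2 it became 0.788 in the 250 bp window, 0.290 in length strata, 0.436 with 200 bp of both factors, 3.02 with this library support, 0.0471 at gene ends and 1.5 in BTE1 fold strata. H2A.Z turned to 0.827 with this library support. Against BTE1 regions without E2FA, total Pol II turned to -0.0195 in the 250 bp window, -1.82 in length strata and -0.195 with this library support. H3K4me2 there became 2.03 above the median score and 2.36 at 200 bp, and H3K4me3 2.50 above the median score, 0.651 with 200 bp of both factors and 1.49 at gene ends, with a range of -0.882 to 0.671 when 1 replicate was left out. Against WDR5A-HA regions without BTE1, H3K4me1 turned to -0.141 above the median score, -0.639 at 200 bp and -0.979 in the 250 bp window. The cause was not tested. Counting gene ends within 1000 bp gave 6 genes of mitosis and cytokinesis at triple regions, against 3 within 500 bp. Of 324 alternative values, 300 kept direction, or stayed within 1.5 times for gene counts. Both counts include the values without a replicate block, which could not change direction.

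With no replicate block, 3 values against 3, the exact p for total Pol II at 28.3 points was 0.1, the smallest possible, as for Ser5P at 39.9 points. Pairing within libraries gave 0.25. Pairing leaves the mean difference itself the same, so this alternative could not change a direction. Peak lists give no read depth, so a missing peak may be a region below detection.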
